A study of Rattus norvegicus with 18 samples.

Results

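The comparison described here set the livers of 6 weanling Wistar rats whose dams received BDE-47 at 0.002 mg per kg of body weight (group 2; G2) against those of 6 rats from vehicle-treated dams (group 1; G1). BDE-47 is a brominated diphenyl ether, one of the flame retardants that persist in fat and pass into milk. The 12 arrays, 1 per pup, were those whose sample titles name the control group or the 0.002 mg/kg dose, out of 18 in the series. The dams of both groups were injected in the tail vein every 5 days from GD 15 to PND 20, 6 times each, with the same ethanol, Cremophor EL and water mixture, so that the vehicle was common to exposed and control pups. The pups themselves received nothing directly. They were sacrificed on PND 27, 7 days past the final dose to the dam. Each group held 3 males (replicates 1 to 3) and 3 females (replicates 4 to 6), 1 of each sex from each of 3 litters. The labels do not say which pups were littermates, so every test below counted 6 pups as 6 samples although they came from 3 dams. Within a sex, each pup came from a different litter. The remaining 6 arrays, from pups exposed to 0.2 mg/kg (group 3; G3), were used only where G2 was compared with G3.

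Some background helps in reading the genes. During suckling the rat liver burns milk fat and makes glucose, and at weaning it turns to a diet rich in carbohydrate. PPARα, a nuclear receptor that senses fatty acids, drives much of the first program: transport of acyl groups on carnitine, β-oxidation in mitochondria and peroxisomes, and the Cyp4a hydroxylases that act on the terminal (ω) carbon of fatty acids. Further receptors sense foreign compounds: AhR, CAR and PXR induce partly overlapping families of cytochrome P450 and of conjugating enzymes.

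Expression values are on a log2 scale, so a difference of 1 is 2-fold. Of 22523 probes, 13793 had a gene symbol, and these stood for 13337 genes. Values in the 12 arrays ran from 7.61 to 15.73, and the scale had its floor close to the median probe (7.84), from which 73.6% of probes differed by no more than 0.5. The albumin gene Alb had medians of 15.54 in G1 and 15.52 in G2, and of 16 measured genes of the exocrine pancreas 15 were no more than 0.2 away from that median. Across the 5727 brighter genes (mean of at least 8.05) the median SD was 0.153 in G1 and 0.123 in G2, and G1 had the larger SD for 66.5% of them. The median SD of G1 was 0.122 without its replicates 1 and 2. G1 replicates 1 and 2, both males, had the lowest scores on the first principal component (-13.97 and -19.09). The other controls followed at -8.83, -3.52, 1.89 and 8.60 without a clear break, and G2 ran from -0.88 to 11.47. G1 replicates 3 and 6 lay within the range of G2. The gene lists were counted again without G1 replicates 1 and 2, an alternative chosen after seeing the data. These were the controls farthest from G2 on that component, and dropping them leaves fewer controls. Smaller differences and lower counts without them are thus partly built in and are no independent check.

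G6pc1, Cyp4a3 and Crot were overexpressed in the livers of G2 pups at an adjusted p of at most 0.05, which makes 3 of 22523 probes (0.0133%), and no gene was underexpressed. With a 2-fold limit, G6pc1 and Cyp4a3 remained (2 probes, 0.00888%). At an unadjusted p of at most 0.05, 656 genes were higher (4.92%) and 849 were lower (6.37%) in G2, and these shares are the background for the gene groups below. Among the 5727 brighter genes, which make up most of the listed genes, they were 7.58% and 10.0%. Over all genes the shares were 2.10% and 3.43% without G1 replicates 1 and 2. With 1 pup left out, list counts are to be read beside the counts over all genes. Those ran from 432 higher and 615 lower (without G1 replicate 1) to 1084 and 1189 (without G1 replicate 6). They were 439 and 681 without G1 replicate 2, and 487 and 687 without G1 replicate 5. Every G2 pup lay above every G1 pup for 34 genes (0.255%) and below every G1 pup for 33 genes (0.247%). For such a gene the exact two-sided permutation test of 6 pups against 6 gives p = 0.00216, the smallest it can give. The 3 genes lay close to the limit on the adjusted p. All 3 genes kept an adjusted p of at most 0.05 when G1 replicate 4 or G2 replicate 5 was left out and only Crot did without G1 replicate 6. None of them did when any other pup was left out, with adjusted p-values of 0.068 to 0.209 from limma. The size of the differences moved little in these fits.

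**Figure D1:**
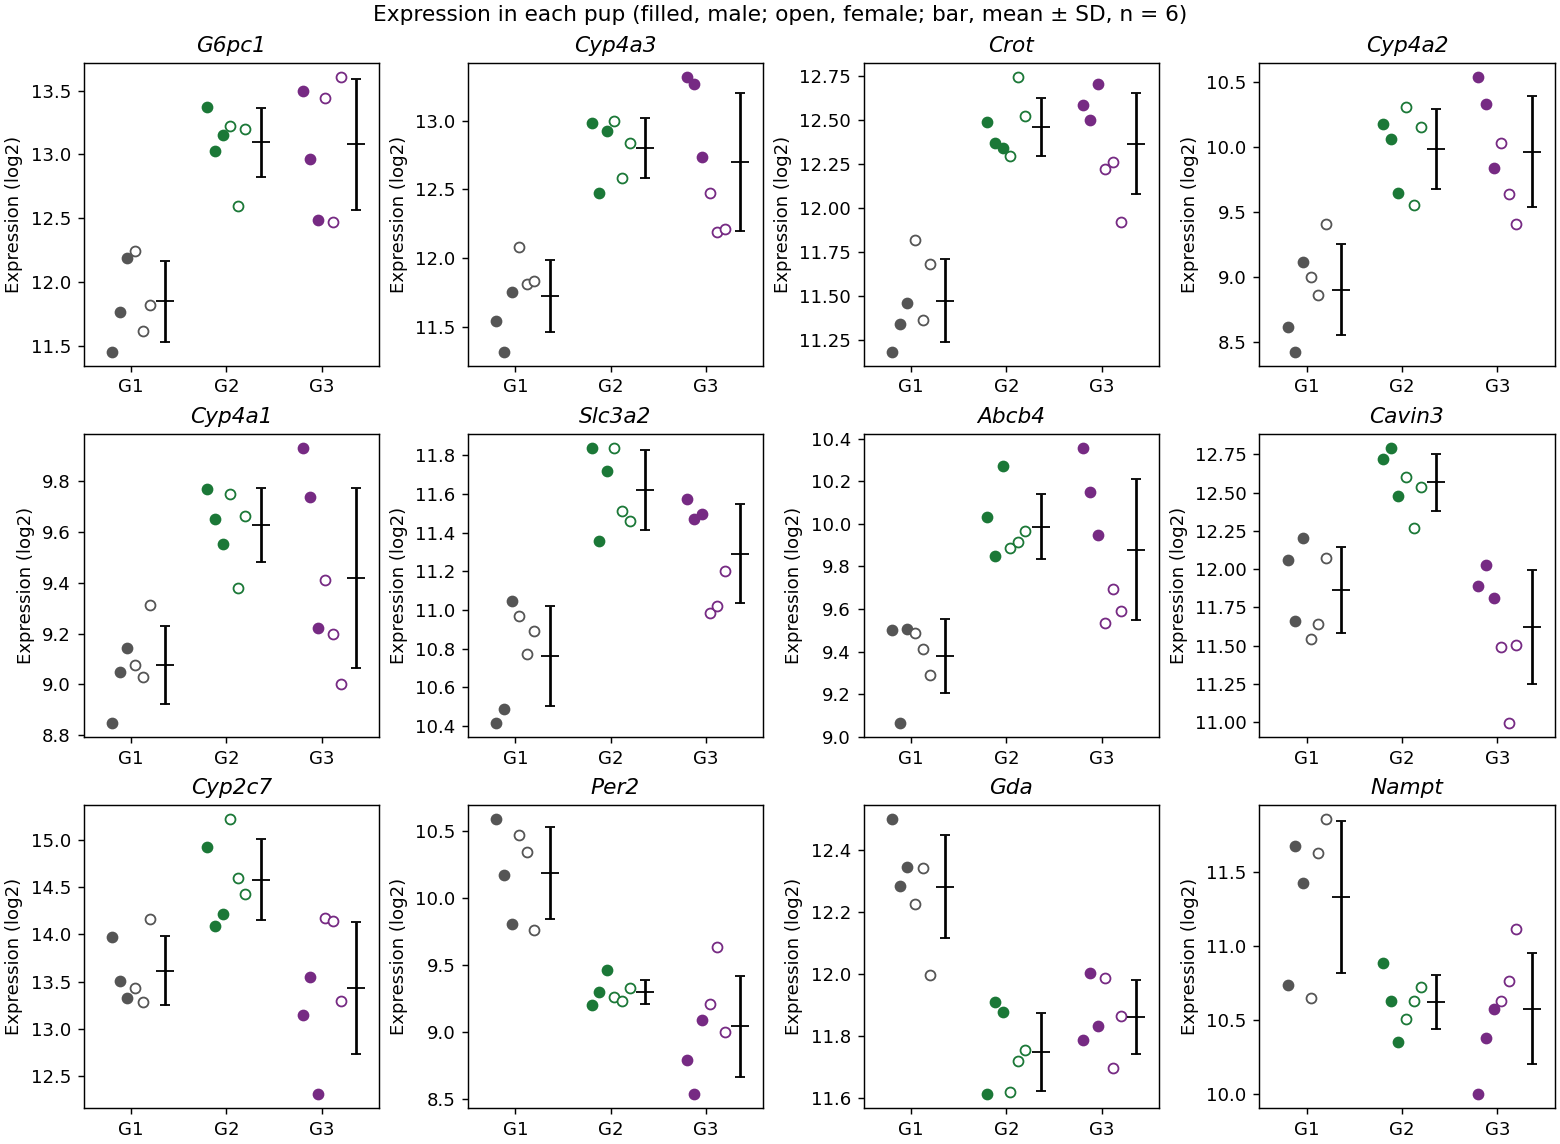
Expression (log2) of 12 genes in each pup of G1, G2 and G3, males filled and females open, with the mean and SD of 6 pups beside each group. The G1 and G2 pups do not overlap for G6pc1, Cyp4a3, Crot, Cyp4a2, Cyp4a1, Slc3a2, Abcb4, Cavin3, Per2 and Gda, while Cyp2c7 and Nampt overlap; each panel has its own axis, which does not start at 0.

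G6pc1 encodes the enzyme that splits glucose-6-phosphate to free glucose as gluconeogenesis ends, and it had the largest of these 3 differences. Its values in G1 ran from 11.45 to 12.25 with a median of 11.79, and those in G2 from 12.60 to 13.37 with a median of 13.18. The lowest G2 pup, a female, still lay above the highest control. The difference was 1.25 (standard error 0.16, 95% confidence interval 0.90 to 1.59, adjusted p = 0.0474 from limma), or 2.37-fold. It was 1.38 in males and 1.11 in females, and 1.13 without G1 replicates 1 and 2. Pck1, the cytosolic PEP carboxykinase that commits carbon to gluconeogenesis, ran from 12.84 to 14.07 (median 13.63) in G1 and from 13.96 to 14.73 (median 14.32) in G2. Of the 6 exposed pups, 5 lay above all controls. Its difference of 0.78 (standard error 0.21) did not pass (adjusted p = 0.419 from limma, exact permutation p = 0.00433). Tat, the tyrosine aminotransferase induced by glucocorticoids and fasting, was higher by 0.54 (standard error 0.17, adjusted p = 0.46 from limma) with overlapping groups.

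Across the pathway, 25 genes of gluconeogenesis and fasting were measured, of which 20 were among the brighter genes. At an unadjusted p of at most 0.05, 4 were higher (background 4.92%, and 7.58% among brighter genes). In the other direction 1 was lower (background 6.37%, and 10.0% among brighter genes). The lower one was Slc37a4, which carries glucose-6-phosphate into the endoplasmic reticulum where G6pc1 acts, with a difference of -0.21. The median over the list was 0.02, against -0.0023 over all genes. The counts were 4 and 0 without G1 replicates 1 and 2. Glycolysis gave 1 higher and 3 lower of 20. Ldha, which interconverts lactate and pyruvate, was higher by 0.62 (standard error 0.20), and the triose isomerase Tpi1 and Gapdh were lower, with differences of -0.30 and -0.22. None of the 3 passed (adjusted p = 0.442 to 0.486 from limma), and without G1 replicates 1 and 2 the counts were 0 and 1. The lower count was also 1 without G1 replicate 2 or G2 replicate 1 alone, and the higher count was 3 without G1 replicate 3 or G2 replicate 5 and 2 without G1 replicate 5, G1 replicate 6 or G2 replicate 1. Tpi1 and Gapdh differed by -0.18 and -0.11 without G1 replicates 1 and 2.

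Cyp4a3 and Crot belong to fatty acid handling. Because G6pc1 and Cyp4a3 carry the 2-fold calls and Cyp4a2 is the close copy of Cyp4a3, the 250 bases upstream of their annotated starts are shown, taken from RefSeq on GRCr8 and written 5′ to 3′ on the strand of each gene. Cyp4a3 lies at chr5:134352237-134352486 and Cyp4a2 at chr5:134170909-134171158, both on the minus strand, and G6pc1 lies at chr10:86807409-86807658 on the plus strand. Capitals mark the nuclear receptor core AGGTCA, also where it lies on the opposite strand, and the forkhead element TGTTTAC.
Cyp4a3: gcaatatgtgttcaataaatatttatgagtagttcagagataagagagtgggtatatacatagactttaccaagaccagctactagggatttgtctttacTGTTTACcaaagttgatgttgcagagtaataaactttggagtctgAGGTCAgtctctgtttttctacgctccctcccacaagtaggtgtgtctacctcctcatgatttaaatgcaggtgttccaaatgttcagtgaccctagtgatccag
Cyp4a2: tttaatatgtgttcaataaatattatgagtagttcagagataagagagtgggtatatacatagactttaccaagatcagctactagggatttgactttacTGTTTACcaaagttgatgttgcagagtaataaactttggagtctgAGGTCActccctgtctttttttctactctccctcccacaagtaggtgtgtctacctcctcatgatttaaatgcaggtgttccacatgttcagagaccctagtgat
G6pc1: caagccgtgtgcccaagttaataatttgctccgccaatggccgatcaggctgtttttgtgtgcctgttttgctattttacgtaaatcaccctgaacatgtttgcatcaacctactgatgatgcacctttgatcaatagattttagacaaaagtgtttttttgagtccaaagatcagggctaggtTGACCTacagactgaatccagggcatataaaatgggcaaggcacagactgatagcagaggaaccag
The Cyp4a3 and Cyp4a2 windows were 92.5% identical over 255 aligned columns, and both held TGTTTAC at -150 to -144 and AGGTCA at -105 to -100, counted from the start. G6pc1 held the core on the reverse strand at -66 to -61. Of all 33469 promoter windows searched on both strands, 14.1% held AGGTCA and 3.21% held TGTTTAC. The window of Crot held neither, nor a pair of AGGTCA in tandem with 1 base between (DR1), which was in 0.0508% of windows. Letters that match are not evidence of a bound site.

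Cyp4a3, a fatty acid ω-hydroxylase, ran from 11.31 to 12.08 (median 11.78) in G1 and from 12.47 to 13.00 (median 12.88) in G2, with no overlap. The difference was 1.08 (standard error 0.13, 95% confidence interval 0.79 to 1.37, adjusted p = 0.047 from limma), or 2.11-fold, and was 0.93 without G1 replicates 1 and 2. Cyp4a2, its close paralog, ran from 8.42 to 9.41 (median 8.93) in G1 and from 9.55 to 10.31 (median 10.11) in G2. Its groups did not overlap either, and its difference of 1.08 (standard error 0.18) did not pass (adjusted p = 0.139 from limma). Whether each probe reads only its own gene is uncertain, since the pair is nearly identical in sequence. Cyp4a1, of the same subfamily, was at 9.08 ± 0.15 in G1 and 9.63 ± 0.14 in G2 (SD, n = 6) without overlap, a difference of 0.55 (adjusted p = 0.0975 from limma). Its second probe gave 0.83 (adjusted p = 0.467 from limma). The other 8 ω-hydroxylases measured, Cyp4a8 and members of other Cyp4 subfamilies, differed by -0.20 to 0.04 and none reached an unadjusted p of 0.05. The list thus held 3 higher and 0 lower of 11, and 3 and 1 without G1 replicates 1 and 2.

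Crot, the peroxisomal carnitine octanoyltransferase that hands shortened acyl chains on toward mitochondria, had the smallest p of all probes. It ran from 11.18 to 11.82 (median 11.41) in G1 and from 12.30 to 12.75 (median 12.43) in G2, and the gap between the groups was wider than the range of the exposed pups. The difference was 0.99 (standard error 0.11, 95% confidence interval 0.75 to 1.23, adjusted p = 0.0393 from limma), just under 2-fold. Cpt1a, the carnitine palmitoyltransferase that gates entry of long chains into mitochondria, was higher by 0.81 (standard error 0.24, adjusted p = 0.444 from limma), with values of 10.14 to 11.47 in G1 and 11.13 to 12.01 in G2. Its groups overlapped, and the difference was 1.16 in males, whose controls include G1 replicates 1 and 2, and 0.47 in females. In all pups it was 0.64 once those arrays were dropped. Crat, the acetyltransferase of the family, was higher by 0.21. These were the 3 higher members of 11 measured for acyl transport, and 0 were lower. The other 8 differed by -0.34 to 0.15. The counts were 4 and 0 without G1 replicates 1 and 2.

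Among the enzymes of mitochondrial β-oxidation, 5 of 16 were higher and 1 was lower. Eci1, an enoyl-CoA isomerase for unsaturated chains, ran from 12.74 to 13.24 in G1 (median 13.04) and from 13.29 to 13.65 in G2 (median 13.40). The groups did not overlap, and the difference was 0.42 (standard error 0.10, adjusted p = 0.419 from limma). Hadhb, the thiolase subunit of the trifunctional protein, was higher by 0.61 (standard error 0.16), and its partner subunit Hadha, looked up after the values were seen, by 0.05. The remaining higher genes were Ech1 (0.39), Decr1 (0.25) and Hsd17b10 (0.25), of which Ech1 and Decr1 also serve unsaturated chains. Peroxisomal oxidation and thioesterases gave 4 higher and 1 lower of 20. Cat, which breaks down the hydrogen peroxide that peroxisomal oxidation makes, was higher by 0.38, as were the thioesterases Acot12 (0.34) and Acot3 (0.25), and the peroxisomal thiolase Acaa1a was lower with a difference of -0.39. Without G1 replicates 1 and 2 mitochondrial β-oxidation had 4 higher and 0 lower, and the peroxisomal list 2 higher and 1 lower, with Cat at 0.22 and Acot12 at 0.20. Ketogenesis, with 3 genes measured, had 0 in either direction, and 1 lower without those arrays.

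Signals and lipid-handling genes under PPARα gave 7 higher and 1 lower of 25, with a median of 0.05. Cd36, a fatty acid translocase, ran from 9.64 to 10.55 (median 10.14) in G1 and from 10.29 to 11.42 (median 10.87) in G2, and 5 of 6 exposed pups lay above all controls. The difference was 0.73 (standard error 0.19, adjusted p = 0.419 from limma). Fgf21, the hepatic fasting hormone, had the same size of difference (0.74) with a much larger standard error (0.33), and its G2 pups spanned 8.15 to 9.92. Angptl4, which blocks lipoprotein lipase, was higher by 0.42, and Pdk4, which spares pyruvate from oxidation, by 0.37. Creb3l3 was higher by 0.35 and the lipid droplet protein Plin5 by 0.13. Ucp2, a mitochondrial carrier, was lower (-0.42). None of these passed (adjusted p = 0.419 to 0.499 from limma). Without G1 replicates 1 and 2, 4 were higher and 2 lower.

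**Figure D2:**
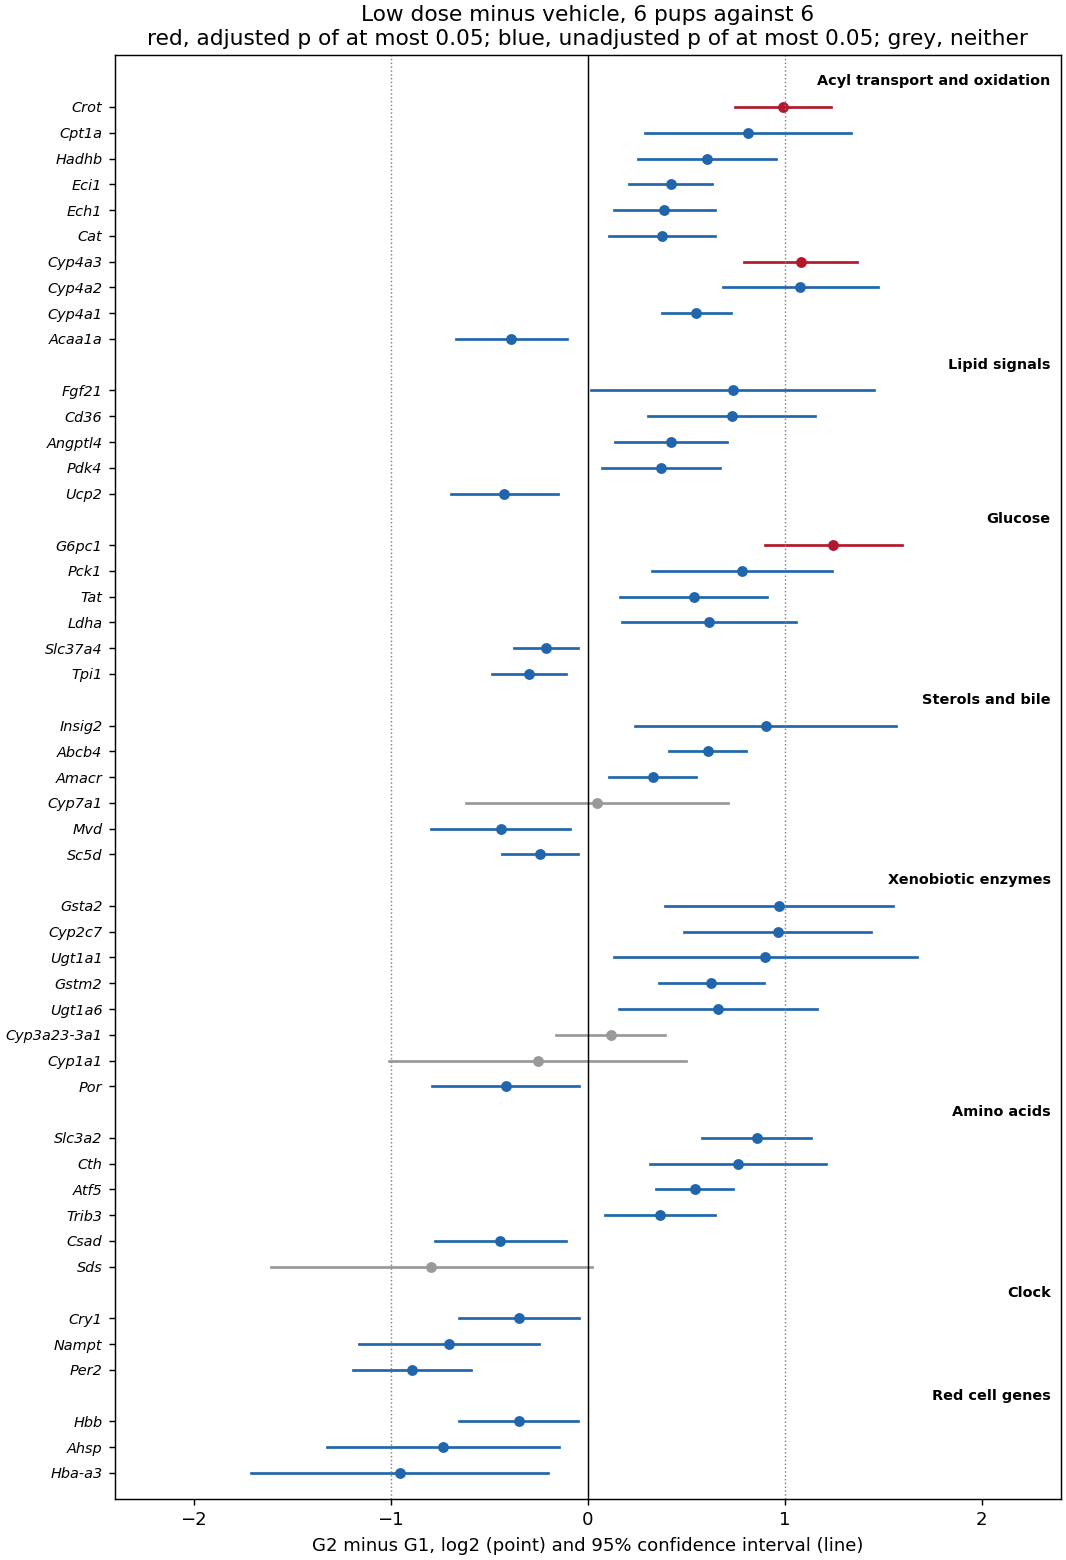
Difference between G2 and G1 (log2, horizontal axis) with its 95% confidence interval for named genes ordered by role; dotted lines mark 2-fold. G6pc1, Cyp4a3 and Crot (red) passed the adjusted test with differences of 1.25, 1.08 and 0.99. The intervals of Cyp7a1, Cyp3a23-3a1, Cyp1a1 and Sds include 0, with Cyp3a23-3a1 drawn from its brighter probe. The dimmer probe of that gene gave 1.03 (standard error 0.41).

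Genes of amino acid supply and breakdown differed in both directions. Slc3a2, the heavy chain that brings several amino acid transporters to the cell surface, ran from 10.41 to 11.05 (median 10.83) in G1 and from 11.36 to 11.84 (median 11.62) in G2. The groups did not overlap, and the difference of 0.86 (standard error 0.13) gave an adjusted p of 0.0975 (limma). Atf5, a transcription factor of the amino acid response, was equally separated, at 10.29 to 10.54 in G1 against 10.70 to 11.22 in G2, with a difference of 0.54 (standard error 0.09, adjusted p = 0.139 from limma). Trib3, a stress-induced pseudokinase, was higher by 0.37. These were the 3 higher of 36 genes of amino acid transport and ATF4 response, and 0 were lower (4 and 1 without G1 replicates 1 and 2). Cth, which makes cysteine, ran from 12.39 to 13.27 (median 13.16) in G1 and from 13.09 to 14.11 (median 13.99) in G2. It was higher by 0.76 (standard error 0.20) in the pooled pups, where it did not pass (adjusted p = 0.419 from limma). In females alone its difference was 0.89, and it was the only probe past the adjusted test there (adjusted p = 0.0229 from limma). Amino acid catabolism and the urea cycle gave 5 higher and 6 lower of 36. Kynu of the tryptophan pathway was higher by 0.57, while Csad of taurine synthesis (-0.44), Sdsl (-0.30) and the urea cycle enzyme Ass1 (-0.21) were lower. Without G1 replicates 1 and 2 the counts were 4 and 1, and with 1 pup left out the higher count was 8 without G1 replicate 6 and 3 when any of G1 replicates 1, 2 and 5 and G2 replicates 1, 2, 4 and 6 was dropped. Kynu and Ass1 differed by 0.35 and -0.13 without G1 replicates 1 and 2.

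Per2, a repressor of the circadian clock that oscillates in liver, was lower in G2 without passing the adjusted test. The window upstream of Per2 is shown because it carries the D-box TTATGTAA (capitals), the element bound by Dbp and Tef, 2 further genes of the clock list. It lies at chr9:99496994-99497243 on the minus strand, and the element spans -192 to -185.
Per2: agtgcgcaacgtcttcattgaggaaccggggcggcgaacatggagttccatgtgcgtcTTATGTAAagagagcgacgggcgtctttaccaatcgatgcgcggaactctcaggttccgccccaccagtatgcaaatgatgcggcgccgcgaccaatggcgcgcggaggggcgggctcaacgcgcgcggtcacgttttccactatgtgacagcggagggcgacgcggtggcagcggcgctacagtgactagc
Of all windows 0.828% held the D-box. The E-box CACGTG (5.59% of windows) and the cAMP element TGACGTCA (1.59%) were not in the Per2 window. Only exact letters were searched, so CACGTT, a near match to the E-box that this window does hold, was not counted.
Per2 ran from 9.76 to 10.59 (median 10.26) in G1 and from 9.20 to 9.46 (median 9.28) in G2. No exposed pup reached the lowest control, and the exposed pups were much more alike than the controls (SD 0.09 against 0.35). The difference was -0.89 (standard error 0.14, 95% confidence interval -1.19 to -0.59, adjusted p = 0.0975 from limma), -0.87 in males and -0.92 in females. Nampt, the NAD-salvage enzyme that the clock drives, ran from 10.65 to 11.86 (median 11.53) in G1 and from 10.36 to 10.89 (median 10.63) in G2, a difference of -0.71 (standard error 0.21, adjusted p = 0.444 from limma). Among the controls 4 pups lay above the exposed range and 2 within it. Cry1, a partner of Per2 in repression, was lower (-0.35), as were Tef (-0.14) and Dbp (-0.08), the last near the floor of the scale. Of 19 clock genes 6 were lower and 2 were higher, with a median of -0.08. Without G1 replicates 1 and 2 the counts were 2 lower, Per2 and Nampt, and 0 higher. The hour at which each pup was sacrificed is not given in the sources used here, and its part in these values was not tested.

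Among bile and sterol genes, Abcb4, which exports phospholipid into bile, ran from 9.06 to 9.51 (median 9.45) in G1 and from 9.85 to 10.27 (median 9.94) in G2. The groups did not overlap, and the difference was 0.61 (standard error 0.09, adjusted p = 0.0975 from limma). A second, dim probe of the gene at 7.73 showed 0.01. Amacr, a racemase of bile acid synthesis, was higher by 0.33 and the uptake carrier Slco1b2 by 0.39, which made 3 higher and 0 lower of 19 genes (2 and 0 without G1 replicates 1 and 2, and 5 higher without G1 replicate 4). Slco1b2 was at 0.22 without G1 replicates 1 and 2. Cyp7a1, which opens the classic route from cholesterol to bile acids, was at 13.71 ± 0.69 in G1 and 13.75 ± 0.38 in G2 (SD, n = 6), a difference of 0.04 with a 95% confidence interval of -0.62 to 0.71, and of 0.34 without G1 replicates 1 and 2. Insig2, which holds back sterol synthesis, ran from 10.91 to 13.20 in G1 and only from 12.61 to 12.81 in G2. Its difference was 0.90 (standard error 0.30, adjusted p = 0.467 from limma), and 1 control pup (replicate 3) lay above every exposed pup. Of 19 genes of cholesterol synthesis, 2 were higher and 3 lower, and 1 and 1 without G1 replicates 1 and 2. The lower ones were Mvd (-0.44), Scap (-0.26) and Sc5d (-0.24).

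Among genes of xenobiotic metabolism, Cyp2c7, a retinoid-metabolizing P450, ran from 13.28 to 14.16 (median 13.47) in G1 and from 14.08 to 15.22 (median 14.51) in G2. It was higher by 0.97 with a standard error of 0.22 (adjusted p = 0.412 from limma), and 5 of 6 exposed pups lay above all controls. A second, dim probe of Cyp2c7, at 7.80 in G1, showed -0.016. Cyp2c22 was higher by 0.20 near the top of the scale, with values of 15.05 to 15.19 in G1 and 15.23 to 15.37 in G2 that did not overlap (adjusted p = 0.0975 from limma). Cyp3a23-3a1, the P450 most often read as a PXR response in rat, was at 13.39 ± 0.28 and 13.51 ± 0.17 (SD, n = 6), a difference of 0.12 (95% confidence interval -0.16 to 0.39). Its second, dimmer probe gave 1.03 (standard error 0.41, adjusted p = 0.486 from limma), so that the probes of this gene disagree. Cyp3a2 was higher by 0.18, and Por, the reductase that serves all microsomal P450s, was lower (-0.42, and -0.22 without G1 replicates 1 and 2). In all, 4 of 18 CAR and PXR genes were higher and 1 was lower, and 1 and 0 without G1 replicates 1 and 2. The higher count was 1 without G1 replicate 2 or 5 and 2 without G1 replicate 1 or 3. Cyp1a1, the foremost AhR target, ran from 8.54 to 10.64 in G1 and from 8.49 to 9.82 in G2 with a difference of -0.25 (95% confidence interval -1.01 to 0.50). Its sign turned (0.06) without G1 replicates 1 and 2. Cyp1a2 differed by 0.19 (adjusted p = 0.554 from limma), and by 0.11 without them. The AhR gene itself, Ahr, was higher by 0.55 and Ugt1a6 by 0.66, the only 2 of 9 in that list, and the count was 0 without those arrays.

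Conjugating enzymes gave 7 higher and 4 lower of 32, and 5 and 0 without G1 replicates 1 and 2. With 1 pup left out the higher count was as low as 4 (without G1 replicate 2 or 5), and the lower count was 2 or fewer without any pup but G1 replicates 4 and 6. Gsta2, an alpha glutathione transferase, ran from 11.70 to 13.02 (median 12.62) in G1 and from 12.86 to 14.16 (median 13.47) in G2, a difference of 0.97 (standard error 0.26, adjusted p = 0.435 from limma). It was 1.53 in males, whose controls include G1 replicates 1 and 2, 0.42 in females, and 0.75 in all pups without those arrays. Gstm2, of the mu class, was higher by 0.63 (standard error 0.12, adjusted p = 0.302 from limma), Gstm1 by 0.32, and Gstt2, of the theta class, by 0.23 without overlap of the groups. Ugt1a1, the bilirubin glucuronosyltransferase, was higher by 0.90 (standard error 0.35, adjusted p = 0.486 from limma). The Ugt1a genes share exons, so the probes of Ugt1a1 and Ugt1a6 may not tell them apart. G1 replicates 1 and 2 were the lowest pups for both, and without them the differences were 0.47 and 0.40, and that of Gstm1 was 0.19. Antioxidant targets of Nrf2 gave 3 higher of 20, Gclc (0.56), Gsr (0.41) and Nfe2l2 itself (0.34), and 0 without G1 replicates 1 and 2, where the differences were 0.37, 0.25 and 0.20. Dropping G1 replicate 1, 2 or 5 alone, or 1 of G2 replicates 4, 5 and 6, left a count of 1. The count was 4 without G1 replicate 6.

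Outside these pathways, several genes of small p were lower in G2. Gda, guanine deaminase, ran from 12.00 to 12.50 (median 12.31) in G1 and from 11.61 to 11.91 (median 11.74) in G2, a difference of -0.53 (standard error 0.08, adjusted p = 0.0975 from limma). Epb41 (a membrane skeleton protein, -0.39), Snrnp48 (a protein of the minor spliceosome, -0.33) and Agt (angiotensinogen, -0.32) likewise showed no overlap between G1 and G2. Qprt, of NAD synthesis from tryptophan, was lower (-0.30) with 5 of 6 exposed pups below all controls. A second probe of Qprt, at 12.66 in G1, showed a smaller difference of -0.15. Cavin3, a coat protein of caveolae, was on the higher side. It ran from 11.54 to 12.21 (median 11.86) in G1 and from 12.27 to 12.79 (median 12.57) in G2, a difference of 0.70 (standard error 0.13, adjusted p = 0.223 from limma). Cldn1, a tight junction protein, was higher by 0.54, and the transcription factor Nfix was lower (-0.53). Larger differences were less certain. The aldo-keto reductase Akr1b7 had the largest negative difference among genes at an unadjusted p of at most 0.05 (-1.23, standard error 0.44), with G2 pups between 10.04 and 11.75 and G1 pups between 10.39 and 12.88. Pdia5, a disulfide isomerase, differed by 1.07 (standard error 0.33), and its controls fell into 4 pups at 8.65 to 8.87 and 2 at 10.03 and 10.43. None of these genes passed (adjusted p = 0.0975 to 0.471 from limma).

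**Figure D3:**
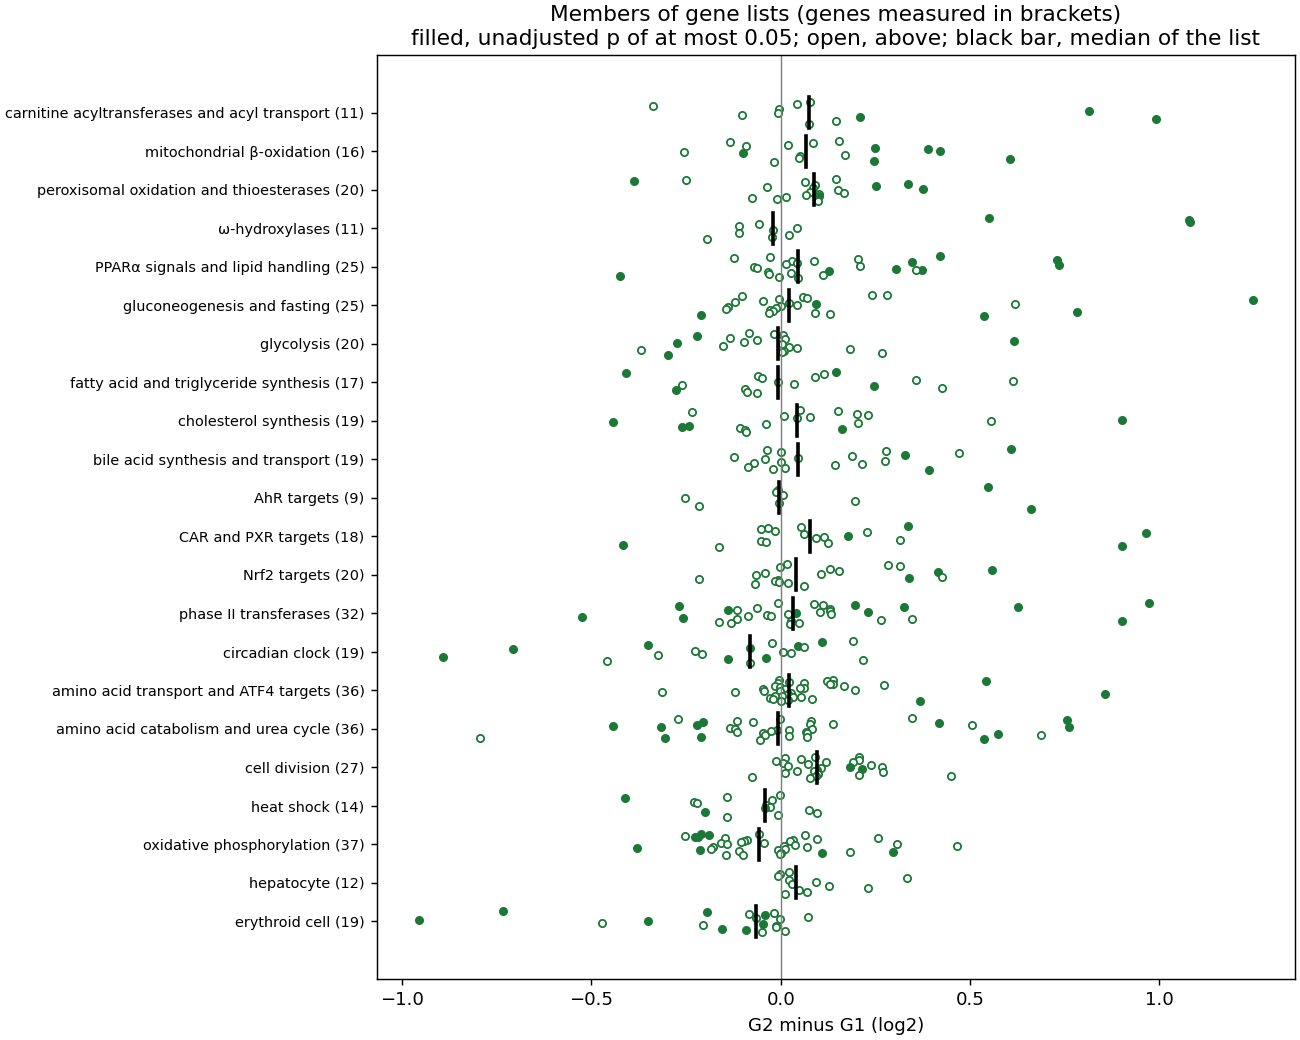
Difference between G2 and G1 (log2) for every measured member of 22 gene lists, filled at an unadjusted p of at most 0.05, with the median of each list as a black bar. Most members lie near 0: the medians of these lists run from -0.08 for the circadian clock to 0.09 for cell division, and single genes such as G6pc1 (1.25), Cyp4a3 (1.08) and Crot (0.99) stand to the right.

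Cell division had 25 of 27 genes above 0 with a median of 0.09, of which 3 were higher at an unadjusted p of at most 0.05, among them the replication helicase gene Mcm2 (0.21) and the spindle motor Kif11 (0.18), and 0 without G1 replicates 1 and 2, where Kif11 was at 0.11. Dropping G1 replicate 1, 2 or 5 alone, or 1 of G2 replicates 3 and 6, left 1, and the count was 5 and 6 without G1 replicates 3 and 6 in turn. The median over all genes was -0.0023. Heat shock genes gave 3 lower of 14, Hspd1 (-0.20) and Chordc1 (-0.41) among them, and endoplasmic reticulum stress genes 3 lower and 1 higher of 19, with Dnajc3 at -0.22, Hsp90b1 at -0.36 and Herpud1 at 0.40. When G1 replicates 1 and 2 were dropped, heat shock had 2 lower, and endoplasmic reticulum stress 1 lower and 0 higher, with Hsp90b1 at -0.21. With 1 pup left out the stress list had 2 to 7 lower, with 7 without G1 replicate 4 and 2 without 8 of the 12 pups, and its higher count was 0 without G1 replicate 1, 3 or 5 and without G2 replicate 1 or 4. Oxidative phosphorylation gave 6 lower and 2 higher of 37 (Atp5po -0.22, Cox4i1 -0.23, Ndufs3 -0.38, Sdha 0.30), and 3 and 0 without G1 replicates 1 and 2 (Atp5po -0.13, Sdha 0.14), while the lower count was 10 without G1 replicate 3 or G2 replicate 2 and 11 without G1 replicate 6. The higher count was 0 without G1 replicate 1, G2 replicate 4 or G2 replicate 6, and 5 without G2 replicate 3. Over all genes the lower count was 971, 757 and 1189 without G1 replicate 3, G2 replicate 2 and G1 replicate 6, against 849 in all pups. The interferon list had 1 lower of 23, Ifi27 (-0.66), and the acute phase list 1 lower of 23. These were 0, with Ifi27 at -0.42, and 3 without G1 replicates 1 and 2. The growth hormone and IGF axis gave 2 higher and 0 lower of 20, and 0 of either without G1 replicates 1 and 2 or without G1 replicate 1, G1 replicate 5 or G2 replicate 1 alone. That axis had 3 higher without G1 replicate 3 or 6, and 1 higher and 2 lower without G1 replicate 4. Thyroid hormone genes gave 0 higher and 2 lower of 14, and 0 lower when G2 replicate 6 was dropped. They had 2 higher and 1 lower without G1 replicate 6. Fatty acid and triglyceride synthesis gave 2 higher and 2 lower of 17, and glycogen metabolism 0 and 1 of 10. Both lists had 0 in either direction without G1 replicates 1 and 2. With 1 pup left out synthesis ran from 1 to 4 higher and 0 to 2 lower, with 4 higher without G1 replicate 6 and 0 lower when any of G1 replicates 1 and 4 and G2 replicates 1 and 2 was dropped. The glycogen count was 0 when G1 replicate 1, 2 or 5 or G2 replicate 6 was dropped. Without G1 replicate 6 the glycogen list had 1 higher and 2 lower. Of the genes known to be biased to the male liver 2 were higher and 1 was lower of 12, and of those biased to the female liver 2 and 0 of 10. Each had 1 higher and 0 lower without G1 replicates 1 and 2. Of 23 genes that the study names, 11 were higher and 5 lower (8 and 2 without G1 replicates 1 and 2), but that list was chosen by the study on these samples and is not independent evidence.

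Erythroid genes were the marker list with the most lower members, 8 of 19 (background 6.37%, and 10.0% among brighter genes). None was higher, and the median was -0.06. The mean over its members was 9.37 to 9.71 in the G1 pups and 9.21 to 9.45 in the G2 pups, so the groups overlapped. In bulk liver, fewer cells of a type and less RNA per cell cannot be told apart. Hba-a3, an alpha globin, ran from 10.11 to 12.06 (median 10.99) in G1 and from 9.80 to 11.16 (median 9.92) in G2, a difference of -0.96 (standard error 0.34, adjusted p = 0.475 from limma). Its 2 highest values were those of G1 replicates 1 and 2. Without those arrays it differed by -0.53. Ahsp, the alpha globin chaperone, differed by -0.73 (-0.46 without them) and Hbb by -0.35, and globin paralogs are close in sequence, so their probes may overlap. Without G1 replicates 1 and 2 no erythroid gene reached an unadjusted p of 0.05. The count was 5, 4, 5 and 3 without G1 replicate 1, G1 replicate 2, G2 replicate 4 and G2 replicate 5 in turn. Without G1 replicates 3, 4 and 6 in turn the count was 9, 10 and 9. It was 1 in males and 6 in females, whose controls include neither G1 replicate 1 nor 2. Of the lower genes, Gata1, Hbe1 and Rhd lay near the floor of the scale. Hba-a1, the brightest alpha globin, was near the top of the scale with medians of 15.37 in G1 and 15.35 in G2. Hepatocyte markers had 0 higher and 0 lower of 12, and pericentral markers 0 and 0 of 10. Most of the hepatocyte markers lay near the top of the scale, where a difference may not show. Alb, Apoh, Ttr, Tf, Fgb, Ahsg, Serpina1, Cyp2e1 and Ambp had medians of 15.31 to 15.54 in G1. Periportal markers had 1 higher, Pck1, and 2 lower, Ass1 among them, of 9, with a median of -0.12. The lists for endothelium, stellate cells, cholangiocytes and adipocytes had 0 in either direction. All 7 adipocyte genes lay below 0 with a median of -0.19, and 6 of 7 endothelial, 9 of 13 stellate and 5 of 6 cholangiocyte genes did, with medians of -0.05, -0.06 and -0.03. Over all genes the median was -0.0023, so a value below 0 is common. In these lists Adipoq, Lep, Retn, Cdh5, Tek, Flt1 and Krt7 lay near the floor of the scale, where a sign says little. The list for Kupffer cells and leukocytes had 1 higher of 16 and that for skeletal muscle 1 lower of 13. Their part in the other results was not tested.

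Males and females were compared through the interaction of sex and exposure. Of the 3 control males, 2 are G1 replicates 1 and 2, the arrays with the lowest scores on the first principal component. No probe of 22523 passed the interaction (0%; 778 at an unadjusted p of at most 0.05, smallest adjusted p = 0.388 from limma). The genes of smallest interaction p were Znhit6 (0.30 in males, -0.24 in females), Pla2g12a (0.97 and -0.36), Pxdc1 (-0.30 and 0.12), Eps8l2 (0.57 and 0.06) and Amdhd1 (0.56 and -0.63). G6pc1, Cyp4a3 and Crot differed by 1.38, 1.26 and 1.08 in males and by 1.11, 0.90 and 0.90 in females. None of the 3 passed in either sex alone (3 pups against 3).

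**Figure D4:**
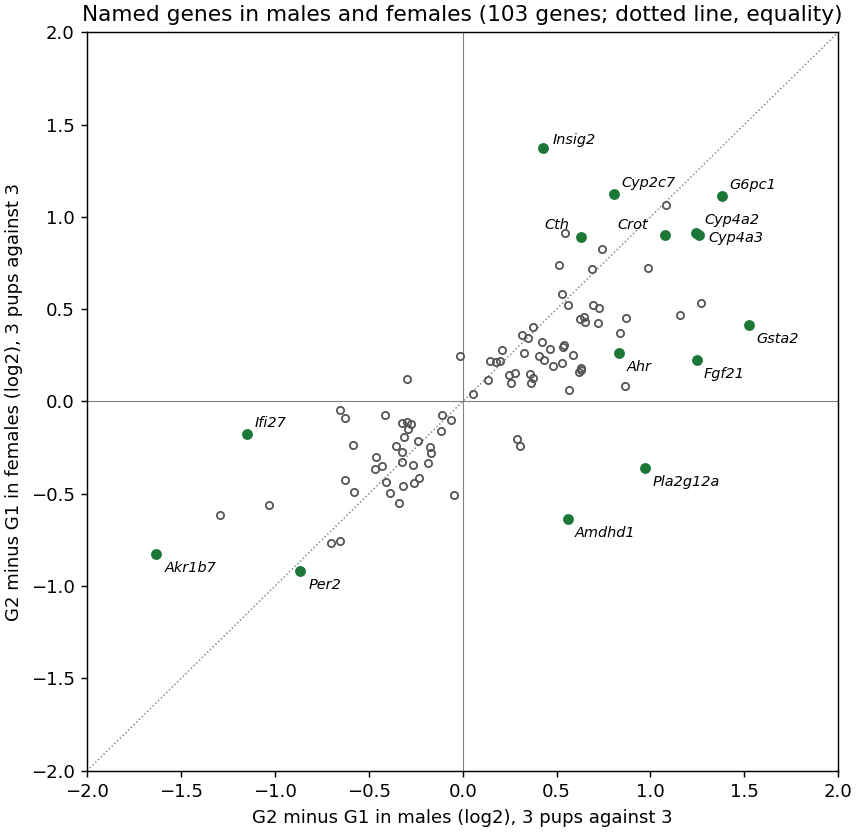
Difference between G2 and G1 in males (horizontal axis) and in females (vertical axis), both log2 and 3 pups against 3, for the 103 named genes; the dotted line marks equality. Most genes were named for their pooled difference, so shared signs follow from the choice; Gsta2 (1.53 and 0.42) and Fgf21 (1.25 and 0.22) lie toward the male axis, Insig2 (0.43 and 1.37) toward the female axis, and Pla2g12a and Amdhd1 have opposite signs.

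The dose of 0.2 mg/kg was set directly against the low dose, a comparison that uses no control pups. Of 22523 probes 4 (0.0178%) passed the adjusted test between G3 and G2. Sc5d, of cholesterol synthesis, and Por were lower in G3 (-0.52 and -0.74, adjusted p = 0.000592 and 0.0275 from limma), and the others were a probe of Slc6a6, named after its value was seen, and a probe with no symbol. For the 3 genes past the test in G2 the intervals of the difference between doses included 0. G3 minus G2 was -0.02 for G6pc1 (95% confidence interval -0.50 to 0.47), -0.10 for Cyp4a3 (-0.56 to 0.35) and -0.09 for Crot (-0.37 to 0.18), intervals that still allow differences of up to 0.56. The genes that follow were chosen for their values in G2, which enter both comparisons, and none passed between the doses. Cavin3 was at 11.86 ± 0.28 in G1, 12.57 ± 0.19 in G2 and 11.62 ± 0.37 in G3 (SD, n = 6), and no G3 pup (highest 12.03) reached the lowest G2 pup (12.27). Its difference between the doses was -0.95 (standard error 0.16, adjusted p = 0.115 from limma). Cyp2c7 differed by -1.14 between the doses (adjusted p = 0.334 from limma), Tat by -0.59 and Cd36 by -0.47. For Hba-a3, Ahsp and Hbb, G3 minus G2 was 0.68, 0.51 and 0.37 (adjusted p = 0.414 to 0.463 from limma).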

How the data were processed

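Liver RNA of 12 pups, 1 Illumina RatRef-12 array each, was analysed, with 6 further arrays (G3) for the comparison of doses. The deposited values are log2 intensities, and the authors used FlexArray with lumi to normalize them. Which lumi settings were used is not stated in the sources. No detection calls or bead counts were used, and the number of arrays limits the precision. G2 and G1 were compared with limma 3.58.1 in R 4.3.3 (lmFit and eBayes, two-sided, Benjamini-Hochberg over all 22523 probes), and calling a gene required both 2-fold and an adjusted p no higher than 0.05. Folds are on the deposited scale. A gene with several probes was represented by the probe of highest mean over the 18 arrays. Dim second probes of Angptl4, Crat and Kif11, at 7.91, 7.71 and 7.76 in G1, showed differences of -0.032, 0.005 and 0.002. Single genes were also given an exact two-sided permutation test. Lists carry counts and medians with no test. Promoter windows came from RefSeq (GRCr8). Genes were named by rule: those past the adjusted test, the 15 of smallest p in each direction among brighter genes, the 10 of largest difference in each direction at an unadjusted p up to 0.05, up to 6 members of smallest p and the extremes of each list, genes the study names and the 5 of smallest interaction p. Members and lists were chosen with earlier results of these data known. The fits were tested on simulated data. Alternatives covered the groups in the fit, variance prior, dim probes, normalization, sex, replicate block, array weights, single sexes, thresholds and each pup left out.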

Additional observations from a re-analysis of the deposited data

Results flagged for a closer look

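Of 206 groups of 6 pups examined over the named genes, 4 held a single pup far from the other 5. That share is below the about 1 in 20 that chance gives. Cth in G1 replicate 2 was at 12.39, against 13.00 to 13.27 in the other controls. Cyp3a2 in G1 replicate 4 was at 15.46, above the 14.91 to 15.08 of the others. Cry1 in G2 replicate 6 was at 8.998, against 8.43 to 8.61 in the other exposed pups. Hba-a3 in G2 replicate 1 was at 11.16, above the 9.80 to 10.30 of the others.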

How the results depend on the processing

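The calls depended on the fit. Against 2 genes called, 0 were called with all 3 groups in one fit, after quantile normalization, in males, in females, and without G1 replicates 1 and 2 (chosen after seeing the data), and 1 with sex as covariate or with array weights; an unadjusted p with 2-fold gave 9, and leaving out 1 pup gave 0 to 3. Against 3 probes past the adjusted test (limma), 8 passed with a trended variance prior or without dim probes, 1 after quantile normalization, 1 in females, 0 in males, 0 without G1 replicates 1 and 2, 0 at an adjusted p of 0.01, and 0 to 4 with 1 pup left out. Replicate numbers did not pair the pups (correlations of same-numbered deviations -0.127 to 0.194, 1 of 6 pairs over 0.1, 0 of 6 pups closest to their own number). The replicate block gave 0 called and 0 past the adjusted test, with a smallest adjusted p of 0.098 from limma. For G3 against G2 (4 probes), the block gave 0, all 3 groups in one fit 1, the trended prior 7, the filter on dim probes 11, and leaving out 1 pup 1 to 6. The interaction stayed at 0 in each fit run. Of 103 named genes 96 kept their sign in every setting. Most were named for their difference in these same arrays, so kept signs largely follow from the choice. Leaving out 1 pup turned some signs: Cyp1a1 ranged from -0.43 to 0.032, Cyp7a1 from -0.16 to 0.18 and Znhit6 from -0.025 to 0.075. Signs turned for the brighter probe of Cyp3a23-3a1 in males (-0.014), and for Cyp1a1 without G1 replicate 2 (0.032) and without G1 replicates 1 and 2 (0.062). They also turned for Cyp7a1 in females (-0.20) and with 1 pup left out (down to -0.16, with -0.079, -0.0061, -0.019 and -0.014 in the others). They turned for Amdhd1 in males (0.56) and without 1 of 4 pups (0.051, 0.026, 0.096 and 0.024), for Pla2g12a (-0.36) and Pxdc1 (0.12) in females, and for Znhit6 in females (-0.24), without G1 replicate 2 (-0.0052), without G2 replicate 1 (-0.025) and without G1 replicates 1 and 2 (-0.036). The cause was not tested. Most probes lie near the floor of the scale, where differences are compressed.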
